A study of Rattus norvegicus with 53 samples.

Results

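Transcripts of glucose uptake and phosphorylation and of the arrestin-like protein that limits uptake were followed in L6 myotubes, the fused form of a line of rat skeletal muscle cells, for 8 hours with or without insulin. The 8 genes were the glucose transporters Slc2a1 (GLUT1), Slc2a3 (GLUT3), Slc2a4 (GLUT4) and Slc2a8 (GLUT8), the hexokinases Hk1 and Hk2, and the alpha-arrestins Txnip and Arrdc4. Members were the probe sets whose single gene symbol in the platform annotation is one of these names, which gave 8 genes of 11577 with a tested probe set and 11 probe sets of the 31099 on the array, besides 3 probe sets for Hk1 that are controls of the manufacturer. All 11 were among the 70.7% of probe sets tested. The brightest probe set by the mean over all arrays stands for its gene, and the second probe sets of Slc2a3, Slc2a4 and Hk1 are given beside it.

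The insulin cultures received 20 nM insulin in serum-free medium at time 0 and the control cultures the same medium without it, after differentiation and a period without serum that both shared. Plates were harvested at 20 min intervals, and the RNA of 3 successive harvests made up the pool of an hour. A pool of time 0 was taken from each culture before any insulin was given. Letters a, b and c are the replicate letters of the array labels. They are taken here as the 3 days on which the course was repeated, the same in both cultures, which the labels do not state. The 53 arrays fall into 18 groups by treatment and hour, each with 1 array per letter, except that letter a of the insulin culture at hour 3 is not analysed here. L6 is a single line in culture, without innervation, blood supply or other tissues, and p-values here measure the spread between repeats of this line.

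Glucose enters muscle cells through facilitative transporters of the SLC2 family. GLUT1 sits largely at the cell surface and serves basal uptake, GLUT3 has a high affinity for glucose and is best known from neurons, GLUT4 is held in vesicles that insulin moves to the surface, and GLUT8 stays mostly on internal membranes. Hexokinases trap the sugar as glucose 6-phosphate: HK1 is the widely expressed form and HK2 the insulin-regulated form of muscle and fat. TXNIP binds thioredoxin and promotes removal of GLUT1 and GLUT4 from the surface, its gene is switched on by glucose through MondoA (Mlxip) and its partner Mlx, and ARRDC4 is its closest relative with a similar effect on uptake.

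All levels are log2 values after quantile normalization, and since probe sets differ in how they bind, no level is set against that of another gene. The array medians lay between 6.3 and 6.37. Of 16 myotube markers 14 were tested, and their mean levels ran from 5.27 (Mb) to 13.5 (Acta1). Myog was at 12.4 and Myh3 at 13.4, but Myh8 at 5.32, Tnnt1 at 6.51 and Des at 7.30. None passed between the cultures by limma over hours 1 to 8 (0 of 14 at an unadjusted p under 0.05). With the letter as a block, Myh3 (-0.12, adjusted p = 0.00989), Tnnt1 (-0.18, 0.0108) and Tnnt3 (-0.11, 0.0136) passed as lower with insulin. The mean level of the 14 was 9.20 to 9.48 in letter c and 10.2 to 10.6 in letters a and b. All 5 adipocyte and 3 endothelial markers with a probe set lay at 3.48 to 4.93, below the lowest tested mean of 5.04. Of 4 macrophage markers Ptprc was at 4.65 and Adgre1 at 2.99, while Csf1r at 5.11 and Cd14 at 7.70 were tested. Of these 2, 1 passed as lower with insulin in hours 5 to 8 under either block, and 0 without a block. All 5 fibroblast and all 5 proliferation markers were tested, with none passing over hours 1 to 8 by limma without a block (1 of the fibroblast markers and none of the proliferation markers at an unadjusted p under 0.05). With the letter as a block, 4 of the 5 fibroblast markers were lower with insulin, from -0.084 for Col3a1 to -0.18 for Pdgfra, and none of the proliferation markers passed. Of the 28 tested markers 7 passed in that fit, against 26.9% of all probe sets, and none of the 28 with 1 mean per letter. In hours 5 to 8 the fibroblast marker Pdgfra passed as lower with insulin (-0.32, adjusted p = 0.0158 by limma), while the mean of the 5 fibroblast markers ran from 10.5 to 10.8 in control and from 10.3 to 10.8 in insulin arrays, and in both fits the part of these markers in the differences of the 8 genes was not tested. In these bulk samples, fewer cells of a type and less RNA per cell cannot be told apart.

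Arrays of letter b at hours 0 to 5 stood apart from the others. Across probe sets, the insulin minus control difference of letter b at time 0, before insulin, correlated at 0.77 with its own mean difference of hours 1 to 5, while the same correlation was 0.025 for letter a and 0.15 for letter c. One array of time 0 stood apart from the other 5. Id1, an inhibitor of muscle differentiation, was at 7.50 in the control culture of letter a, against 9.28 and 9.32 in the control cultures of letters b and c and 8.91 to 9.05 in the insulin cultures, and lay at 7.01 to 7.53 in the later control arrays of letter a. Id3 was at 8.71 in the same array, against 10.9 to 11.4 in the other 5 of time 0. At hour 1 letter a was low in both cultures, at 7.49 (control) and 7.68 (insulin) for Id1, against 9.23 to 9.90 in letters b and c. Id3 was at 9.14 and 9.04 there, against 10.9 to 11.6. Results that rest on letter b at hours 0 to 5 or on that control array of time 0 are given with and without them. The hour 1 arrays of letter a were left out only with the whole letter.

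**Figure D1:**
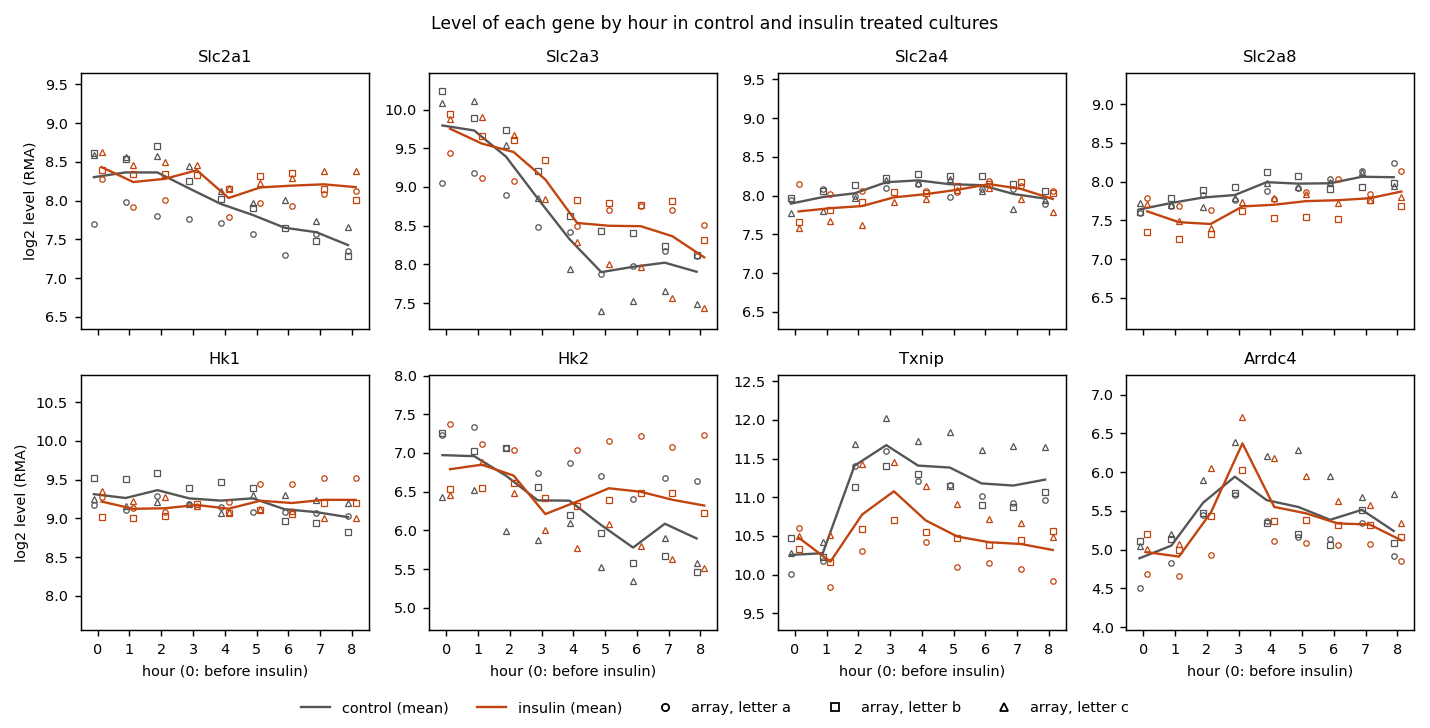
Log2 level (vertical axis) of the brightest probe set of each of the 8 genes against the hour of the pool (horizontal axis), with an open symbol for each array whose shape gives the letter, control and insulin cultures in separate colours and lines through the group means of 2 or 3 arrays. Mean Txnip is lower with insulin from hour 1 on, mean Slc2a1 is higher with insulin in the last hours, and Slc2a3 falls in both cultures.

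Insulin treated and control cultures were compared by the mean treated minus control difference over hours 1 to 8, in which 24 control and 23 insulin arrays enter. Of the 8 genes, Txnip and Slc2a8 were lower with insulin, Slc2a1 was higher, and the other 5 did not pass the limma test at an adjusted p of 0.05. Over all tested probe sets, 12.2% passed, 5.53% as higher and 6.63% as lower. The median difference of the 8 was -0.031 on the log2 scale, against 0.0037 over all tested probe sets. In hours 5 to 8 the same 3 genes passed in the same directions, where 9.35% of all tested probe sets passed, 4.02% as higher and 5.33% as lower. In the first 4 hours, Txnip and Slc2a8 passed as lower and no member as higher, against 3.5% of all, 2.24% as lower and 1.26% as higher.

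**Figure D2:**
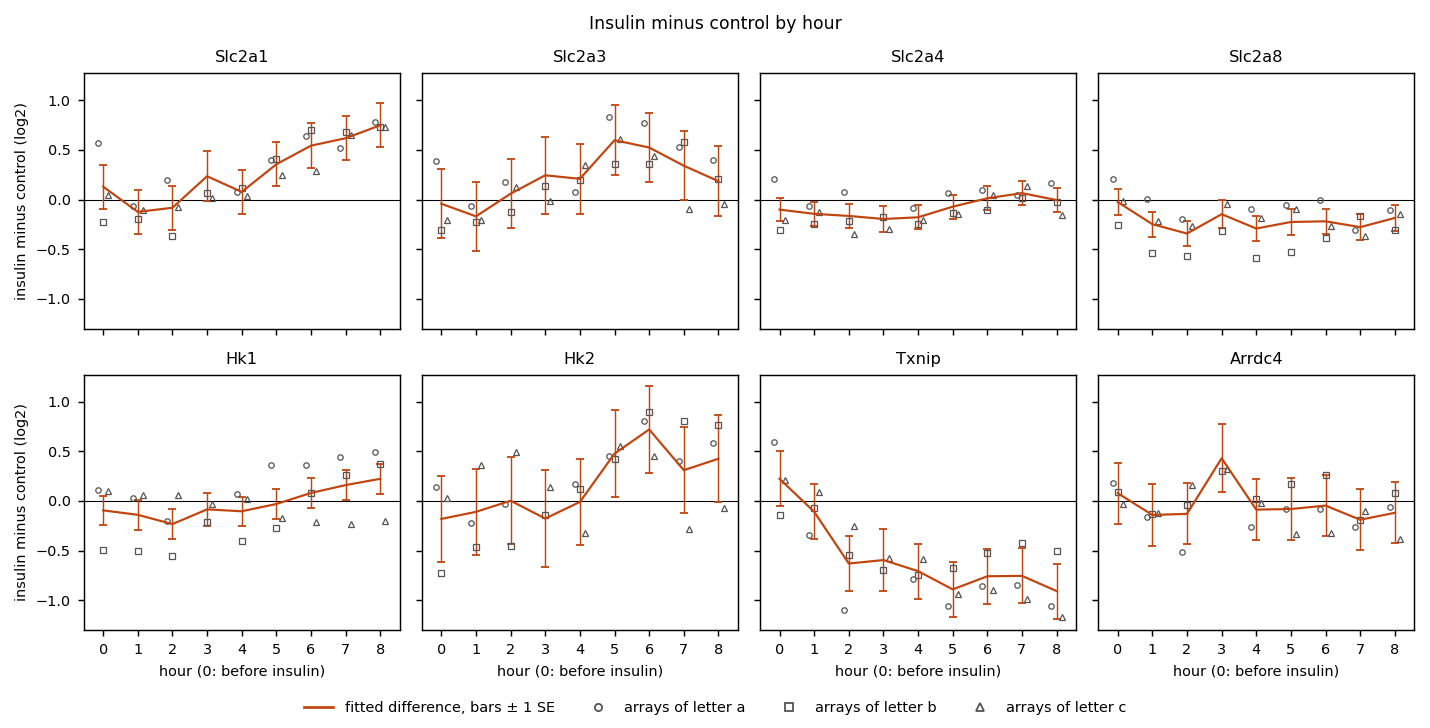
Insulin minus control difference of log2 levels (vertical axis) against the hour of the pool (horizontal axis), one panel for each of the 8 genes, with a line through the fitted differences, bars of 1 SE from the limma fit and an open symbol for each letter. The Txnip difference falls from 0.22 at time 0 to -0.91 at hour 8, and the Slc2a1 difference rises from 0.13 to 0.75.

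At no single hour did any of the 8 genes pass after adjustment (0 of 64 tests of a gene at an hour by limma, 12 at an unadjusted p under 0.05), where of all probe sets 0% passed at hours 1 to 3 and 0.0501%, 0.351%, 0.332%, 0.269% and 0.72% at hours 4, 5, 6, 7 and 8. Arrays of the same letter deviated together, and in a fit that blocks on the letter 9 of the 64 passed (10 in one that blocks on letter and hour). Of all probe sets, 1.66% of such tests passed with the first block and 2.02% with the second. They were Txnip at hours 4 to 8 and Slc2a1 at hours 6 to 8 under both blocks, besides Hk2 at hour 6 with the letter alone and Slc2a3 at hours 5 and 6 with letter and hour. At time 0, none of the 8 passed by limma, with or without adjustment.

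Txnip gave the largest difference of the 8. At hour 8 the control arrays of letters a, b and c read 10.97, 11.07 and 11.65, and the insulin arrays 9.91, 10.56 and 10.48. The 2 cultures did not overlap at that hour, nor at hours 4 to 7, with insulin the lower at each (of all probe sets 4.26%, 3.9%, 4.9%, 5.1% and 6.1% were lower without overlap at hours 4, 5, 6, 7 and 8). In the last 4 hours the 12 control arrays ran from 10.9 to 11.8 with a median of 11.1, and the 12 insulin arrays from 9.91 to 10.9 with a median of 10.5. Only the edges of these ranges touched, the highest insulin array lying just above the lowest control array.

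Txnip was 1.59-fold lower with insulin over hours 1 to 8 (log2 difference -0.67, SE 0.099, 95% CI -0.87 to -0.47, adjusted p = 7.33e-06 by limma). The insulin array was below the control array of the same letter and hour in 22 of 23 pairs, and in letters a, b and c the mean differences were -0.86, -0.52 and -0.66. By hour, the difference was -0.11 at hour 1, then between -0.60 and -0.71 at hours 2 to 4, and between -0.76 and -0.91 at hours 5 to 8 (SE 0.28 each, 0.31 at hour 3). From hour 5 on Txnip was 1.78-fold lower (-0.83, SE 0.14, adjusted p = 4.50e-05), with -0.96, -0.53 and -1.0 in the 3 letters. It was also the only one of the 8 that passed the F test for a difference at any hour (adjusted p = 0.00249, a test that 2.42% of all passed), while in the fit blocked on the letter Slc2a1 (5.37e-06), Slc2a8 (0.00549) and Hk2 (0.0450) passed it too, and with letter and hour Slc2a3 (0.00571) in place of Hk2. The F test of Txnip no longer passed without letter a (adjusted p = 0.132), without letter b (0.481) or without letter b at hours 0 to 5 (0.10).

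Before insulin, letters a, b and c gave Txnip differences of 0.60, -0.14 and 0.21. Taken relative to time 0, the mean difference of hours 1 to 8 was -0.89, which did not pass by limma (unadjusted p = 0.00423). Of all tested probe sets 0% passed that test. A fit that blocks on the letter gave -0.91 and passed (adjusted p = 0.00354). Without the control array of letter a at time 0, it was -0.77 (unadjusted p = 0.0233). The change from the mean of hours 1 and 2 to that of hours 5 to 8 was -0.46 (adjusted p = 0.381, or 0.0182 in the fit that blocks on the letter).

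Slc2a1 was the one gene that passed as higher with insulin. At hour 8 the control arrays of letters a, b and c read 7.34, 7.28 and 7.65 and the insulin arrays 8.13, 8.01 and 8.39. The cultures did not overlap at hours 7 and 8, where 3.94% and 5.01% of all probe sets were higher without overlap. At hours 5 to 8 the control arrays ran from 7.28 to 8.00 (median 7.61) and the insulin arrays from 7.93 to 8.39 (median 8.19), again with only the edges in common.

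The Slc2a1 difference was near 0 at hours 1 and 2 (-0.12 and -0.082) and at hour 4 (0.077). At hour 3 it was 0.24 (SE 0.25), a value that compares 2 insulin with 3 control arrays, while within letters b and c it was 0.070 and 0.012. It was 0.36, 0.54, 0.62 and 0.75 at hours 5, 6, 7 and 8 (SE 0.22). Slc2a1 was 1.48-fold higher with insulin over hours 5 to 8 (log2 difference 0.57, SE 0.11, 95% CI 0.34 to 0.79, adjusted p = 0.000485 by limma). All 12 pairs of arrays of these hours had insulin higher, by 0.25 to 0.78, and the 3 letters gave 0.59, 0.63 and 0.48. Before insulin, letters a, b and c gave 0.57, -0.23 and 0.043, so letter a was near its late value already at time 0. Relative to time 0, the mean difference of hours 1 to 8 did not pass by limma, for Slc2a1 as for all tested probe sets. Without letter b the difference over hours 5 to 8 was 0.53 and no longer passed (adjusted p = 0.0748). The difference over hours 1 to 8 was 0.30 (SE 0.080, adjusted p = 0.0110), insulin being higher in 18 of 23 pairs. This second call was lost without letter b (0.31, adjusted p = 0.198), without letter c (0.33, 0.0750), without letter b at hours 0 to 5 (0.33, 0.0663) and with 1 mean per letter (0.29, 0.113). The rise of the difference from hours 1 and 2 to hours 5 to 8 was 0.67 (SE 0.19), which did not pass without the block (adjusted p = 0.0618) and passed once the letter was a block (adjusted p = 0.000106). No member passed that test of change without the block (0 of 8 by limma, 2 at an unadjusted p under 0.05), while 1.84% of all probe sets did.

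The promoter window of Slc2a1 is shown with that of Slc2a8, since these transporters passed in opposite directions, and with that of Arrdc4, the one member window with an intact CACGTG. Each runs from 250 bases before to 50 bases after the start of the gene on its own strand, from RefSeq on the GRCr8 assembly, at chr5:138002272-138002571 (plus strand), chr3:36682085-36682384 (minus strand) and chr1:131793376-131793675 (minus strand). Capitals mark each match, on either strand, to CACGTG, the E-box core, and to GGGCGG, the core of a GC box.
Slc2a1: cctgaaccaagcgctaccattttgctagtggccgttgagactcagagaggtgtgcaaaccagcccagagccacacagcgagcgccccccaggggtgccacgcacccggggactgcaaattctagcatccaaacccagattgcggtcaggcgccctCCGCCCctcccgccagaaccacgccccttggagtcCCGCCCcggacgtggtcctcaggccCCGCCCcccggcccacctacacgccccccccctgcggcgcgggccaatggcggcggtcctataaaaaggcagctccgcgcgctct
Slc2a8: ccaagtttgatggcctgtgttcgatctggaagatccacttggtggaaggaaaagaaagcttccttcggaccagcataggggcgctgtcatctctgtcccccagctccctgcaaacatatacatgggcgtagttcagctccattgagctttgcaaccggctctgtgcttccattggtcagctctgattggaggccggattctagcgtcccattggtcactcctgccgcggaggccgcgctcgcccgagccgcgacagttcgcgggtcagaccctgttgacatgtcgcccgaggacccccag
Arrdc4: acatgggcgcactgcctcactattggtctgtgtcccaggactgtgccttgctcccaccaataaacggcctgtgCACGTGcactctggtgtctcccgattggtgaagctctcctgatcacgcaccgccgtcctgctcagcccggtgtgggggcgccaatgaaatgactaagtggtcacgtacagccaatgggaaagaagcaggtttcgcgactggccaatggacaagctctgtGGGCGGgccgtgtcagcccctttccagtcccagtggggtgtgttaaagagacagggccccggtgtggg
The Slc2a1 window holds GGGCGG at 3 places on the opposite strand and no CACGTG, the Slc2a8 window neither, and the Arrdc4 window 1 of each. Of 33469 rat windows of this length, 33.1% hold GGGCGG and 6.42% CACGTG. The shorter core CACGNG, which CACGTG also matches, was in the windows of Arrdc4 and Hk2 and is in 26.1% of all. A pair of CACGNG cores with 5 bases between them, as in carbohydrate response elements (0.0359% of all windows), and the forkhead core GTAAACA (3.78%) were in none of the 6 windows of Slc2a1, Slc2a8, Hk1 (2 windows), Hk2 and Arrdc4. Slc2a3, Slc2a4 and Txnip have no window in the table. These matches are letters in a window and no measurement of binding.

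Slc2a8 was lower with insulin by a small and steady amount. The 24 control arrays ran from 7.67 to 8.25 (median 7.93) over hours 1 to 8 and the 23 insulin arrays from 7.25 to 8.14 (median 7.72). The ranges overlapped widely over the whole course, but within single hours the cultures did not overlap at hours 2, 3, 4, 5 and 7 (of all probe sets 5.12%, 11.1%, 4.26%, 3.9% and 5.1% were lower without overlap at these hours). Its transcript was 1.18-fold lower (log2 difference -0.24, SE 0.046, 95% CI -0.33 to -0.15, adjusted p = 0.000276 by limma), with insulin below control in 22 of 23 pairs and a difference of 0.0048 in the remaining pair.

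The hourly differences of Slc2a8 lay between -0.15 and -0.34 from hour 1 to hour 8, the lowest at hour 2. In hours 5 to 8 it was 1.17-fold lower (-0.23, SE 0.064, adjusted p = 0.0161). Letters a, b and c gave -0.11, -0.42 and -0.20 over hours 1 to 8, and 0.20, -0.26 and -0.018 before insulin. The call over hours 1 to 8 was lost without letter b (-0.15, adjusted p = 0.111), without letter b at hours 0 to 5 (-0.16, 0.0611) and with 1 mean per letter (-0.24, 0.223). That over hours 5 to 8 was lost without letter b (-0.17, 0.171), without letter c (-0.23, 0.200) and without letter b at hours 0 to 5 (-0.19, 0.0603).

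Slc2a3 stayed higher in the insulin cultures on average, but did not pass. At hours 5 to 8 its control arrays ran from 7.40 to 8.44 (median 8.05) and the insulin arrays from 7.44 to 8.82 (median 8.61). The ranges shared their lower ends, and the insulin median lay above the highest control array. The difference over hours 5 to 8 was 0.41 (SE 0.17, adjusted p = 0.152 by limma), with 0.63, 0.38 and 0.23 in letters a, b and c and insulin higher in 10 of 12 pairs. Once the letter was a block it passed (0.41, adjusted p = 0.0293), but not with 1 mean per letter (adjusted p = 0.0639). The value over hours 1 to 8 was 0.25 (95% CI -0.0045 to 0.50, adjusted p = 0.207), or 0.23 with letter and hour as the block (adjusted p = 0.00120) and 0.24 with 1 mean per letter, which did not pass (0.208). Its change from hours 1 and 2 to hours 5 to 8 was 0.47, which of the fits run passed only under the block of letter and hour (adjusted p = 0.0100, against 0.519 without a block). The second probe set, at a mean level of 6.78, gave 0.14 over hours 1 to 8 (adjusted p = 0.417).

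Slc2a4, the transporter that insulin moves to the surface, had the difference closest to 0 of the 8 genes at hours 5 to 8. Its control arrays of these hours ran from 7.83 to 8.26 (median 8.07) and its insulin arrays from 7.78 to 8.19 (median 8.08). The cultures thus covered the same range, and the difference was 0.00047 (SE 0.060, 95% CI -0.12 to 0.12). The second probe set had a mean of 7.58 in control and 7.45 in insulin arrays of these hours, a difference of -0.12 (SE 0.13, adjusted p = 0.689), with insulin lower in 8 of 12 pairs. In hours 1 to 4 the insulin arrays were below their controls in 10 of 11 pairs, with a difference of -0.17 that did not pass (adjusted p = 0.107 by limma), and the second probe set gave -0.39 (adjusted p = 0.0905). Both passed in the fit that blocks on the letter (0.0216 and 0.00382). At hours 3 and 4 the cultures did not overlap at either probe set, with insulin lower, as for 11.1% and 4.26% of all probe sets, and at hour 5 they did not overlap at the second, as for 3.9%.

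The lower Slc2a4 values of the first hours were already there before insulin in letters b and c. At time 0 the brightest probe set differed by 0.21, -0.31 and -0.20 in letters a, b and c, and the second by 0.019, -0.41 and -0.64. For hours 1 to 8 the letters gave 0.043, -0.14 and -0.14 at the brightest and -0.013, -0.40 and -0.32 at the second probe set, and all 4 values of letter a lay between -0.013 and 0.21. The mean difference over hours 1 to 8 was -0.085 (SE 0.043, adjusted p = 0.209) at the brightest and -0.25 (SE 0.093, adjusted p = 0.0660) at the second, which passed when blocked on the letter (0.00218) and not with 1 mean per letter (0.264). Without letter a the brightest probe set passed (-0.14, adjusted p = 0.0417).

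Of the hexokinases neither passed without a block. Hk2 over hours 5 to 8 ran from 5.34 to 6.70 (median 5.79) in control and from 5.51 to 7.23 (median 6.44) in insulin arrays. The ranges overlapped over most of their length. Its difference was 0.48 (SE 0.22, 95% CI 0.042 to 0.92, adjusted p = 0.190 by limma), with 0.56, 0.72 and 0.16 in the 3 letters and insulin higher in 10 of 12 pairs. The largest hourly value was 0.72 at hour 6. In the fit that blocks on the letter Hk2 passed over hours 5 to 8 (0.48, adjusted p = 0.000263), over hours 1 to 8 (0.24, 0.0103) and for the change from hours 1 and 2 (adjusted p = 0.0334). With 1 mean per letter none of the 3 passed (adjusted p = 0.0502, 0.111 and 0.361). Without the block, hours 1 to 8 gave 0.20 (SE 0.16, adjusted p = 0.441).

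Hk1 had the narrowest range of the hexokinases. Its control arrays ran from 8.82 to 9.39 (median 9.09) and its insulin arrays from 9.0 to 9.52 (median 9.16) over hours 5 to 8, a range that the cultures shared. The difference over hours 1 to 8 was -0.016 (SE 0.053, 95% CI -0.12 to 0.091, adjusted p = 0.880). Letters a, b and c went apart with 0.22, -0.15 and -0.087, and letter b was at -0.50 before insulin. The second probe set gave 0.050 (adjusted p = 0.461). The manufacturer's Hk1 controls, which read the transcript near its 3' and its 5' end, differed by 0.97 to 1.99 (median 1.38) in control and by 1.0 to 1.97 (median 1.37) in insulin arrays of hours 1 to 8. These ranges were close in both cultures, but arrays of 1 pair could differ. At hour 8, insulin minus control was -0.47 at the 3' and -1.2 at the 5' control in letter c. In letter b it was 0.44 and 0.67.

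Arrdc4 lay close to the lowest tested level, with a mean of 5.39. At hours 5 to 8 it ran from 4.92 to 6.28 (median 5.27) in control and from 4.86 to 5.95 (median 5.32) in insulin arrays. The cultures covered one range, and the difference over hours 1 to 8 was -0.046 (SE 0.11, 95% CI -0.27 to 0.18, adjusted p = 0.835 by limma). Insulin was below control in 16 of 23 pairs, and the letters gave -0.20, 0.058 and -0.10. The fitted difference of 0.43 at hour 3 compares 2 insulin with 3 control arrays. Within letters b and c at that hour it was 0.30 and 0.32.

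Of the 3 other alpha-arrestins tested, of 4 listed, 1 was lower with insulin over hours 1 to 8 and none higher. That was Arrdc2, an adaptor for ubiquitin ligases, with a log2 difference of -0.28 (SE 0.047, adjusted p = 4.55e-05 by limma) that kept its call without each letter in turn but not with 1 mean per letter (adjusted p = 0.0815). Arrdc3 gave -0.19 (adjusted p = 0.618). The thioredoxin system, the partners of TXNIP, gave 0 of 5 passing by limma (1 at an unadjusted p under 0.05), and the 3 Mondo and Mlx factors 0 of 3 (1 unadjusted). In the fit that blocks on the letter, Txnrd1, a thioredoxin reductase (0.12, adjusted p = 0.0168), and Mlx (0.13, 0.00937) passed as higher, and neither did with 1 mean per letter.

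Both cultures also changed with time in the medium. In the control cultures, 4 of the 8 genes differed between hours 5 to 8 and time 0, as 6.48% of all probe sets did. Slc2a3 and Slc2a1 fell (2.83% of all fell) and Txnip and Slc2a8 rose (3.65% rose). In the insulin cultures only Slc2a3 passed, and it fell (1.46% of all passed, 0.943% downward and 0.515% upward). The differences between the cultures at hours 5 to 8 and these courses share their arrays, and are given side by side.

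**Figure D3:**
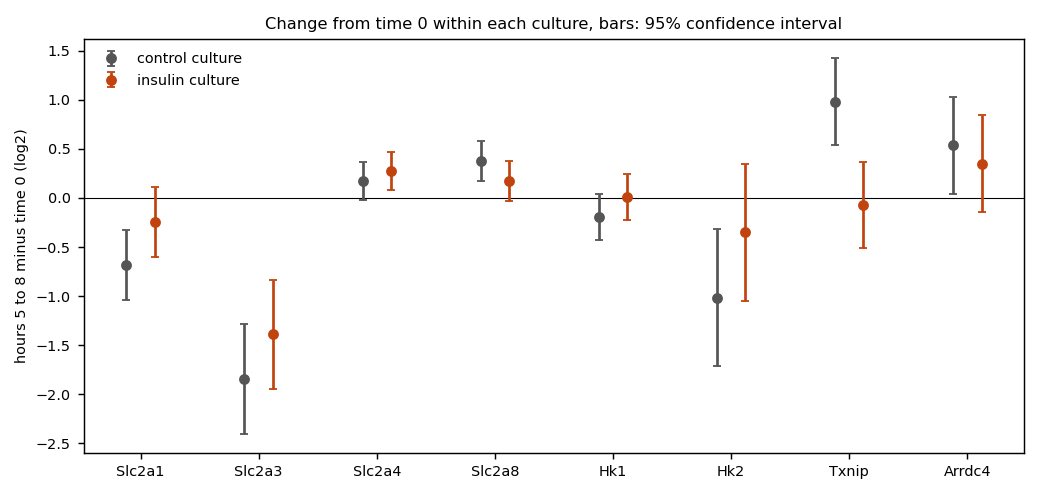
Change of the log2 level from time 0 to the mean of hours 5 to 8 (vertical axis) for each of the 8 genes (horizontal axis), points for control and insulin cultures with bars for the 95% confidence interval from the limma fit. Slc2a3 falls in both cultures, while Txnip rises by 0.98 in control and is at -0.072 in insulin cultures.

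Slc2a3 fell furthest. At time 0 the control arrays of letters a, b and c read 9.05, 10.2 and 10.1 and the insulin arrays 9.44, 9.94 and 9.88. All 24 arrays of hours 5 to 8, of either culture, were below these, the highest being 8.82, and 2.17% of all probe sets in control and 1.86% in insulin cultures lay lower without overlap. The fall was 3.59-fold in control (log2 change -1.84, SE 0.28, adjusted p = 2.59e-05) and 2.62-fold in insulin cultures (-1.39, SE 0.28, adjusted p = 0.00360), and the second probe set gave -1.47 (4.76e-05) and -1.08 (0.00673). In control cultures the change was -0.94, -1.47 and -1.89 at hours 3, 4 and 5. Without the control array of letter a at time 0 the control value was -2.22 (adjusted p = 1.16e-05), and it passed without each letter. The insulin value did not pass without letter b (-1.45, 0.0918), without letter c (-1.01, 0.171) or without letter b at hours 0 to 5 (-1.33, 0.0793).

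Txnip rose in the control cultures within the first hours and stayed up. Its control arrays of time 0 read 10.0, 10.5 and 10.3, and all 12 of hours 5 to 8 were above them, from 10.9, as 2.96% of all probe sets were. The change was 0.022 at hour 1 and went to 1.15 at hour 2 and 1.42 at hour 3, then read 1.13 at hour 5 and 0.97 at hour 8, and at hour 3 it passed by limma (adjusted p = 0.00933, where 0.0638% of all passed as higher). At hours 5 to 8 Txnip was 1.97-fold above time 0 in control cultures (0.98, SE 0.22, adjusted p = 0.00343). In insulin cultures, time 0 read 10.6, 10.3 and 10.5, the change was 0.60 at hour 3, and over hours 5 to 8 it was -0.072 (95% CI -0.51 to 0.37, adjusted p = 0.978). The control call was lost without letter b (1.21, adjusted p = 0.0711) and kept without the control array of letter a at time 0 (0.86, 0.0366).

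Slc2a1 fell 1.60-fold in the control cultures (log2 change -0.68, SE 0.18, adjusted p = 0.0123 by limma) and by 0.25 on the log2 scale in the insulin cultures, which did not pass (adjusted p = 0.741). Its control arrays of time 0 read 7.70, 8.62 and 8.59 in letters a, b and c, where letter a already lay among the later values. Without that array the fall was -0.98 (adjusted p = 0.000805). The call was lost without letter b (-0.50, 0.482), without letter c (-0.65, 0.166) and without letter b at hours 0 to 5 (-0.54, 0.312). Slc2a8 rose 1.3-fold in control cultures (0.38, SE 0.10, adjusted p = 0.0157), where the later arrays did not overlap those of time 0, and was at 0.17 in insulin cultures (adjusted p = 0.610). Its control call was lost without letter a (0.32, 0.0680), b (0.38, 0.0839) or c (0.43, 0.176), without letter b at hours 0 to 5 (0.35, 0.113) and without the control array of letter a at time 0 (0.35, 0.0725).

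Hk2 was at -1.01 in control cultures over hours 5 to 8 (SE 0.34, adjusted p = 0.0695, or 7.91e-06 in the fit that blocks on the letter) and at -0.35 in insulin cultures. Arrdc4 was at 0.53 in control cultures (SE 0.24, adjusted p = 0.215, or 0.00186 with the block) and at 0.35 in insulin cultures, with the highest values at hour 3 in both, 1.05 in control and 1.41 in insulin cultures. Slc2a4 was at 0.17 and 0.27 (adjusted p = 0.347 and 0.185), of which the insulin value passed with the block (adjusted p = 0.0213). Hk1 was at -0.19 and 0.0090. In the same hours the myoblast markers Id1 and Id3 fell in both cultures. By limma they were at -1.25 (adjusted p = 0.0211) and -2.24 (adjusted p = 0.00136) in control cultures, the low array of letter a at time 0 included. In insulin cultures they were at -1.35 (adjusted p = 0.0337) and -2.78 (adjusted p = 0.00045). Myod1, the other marker of that list with a probe set, was at a mean of 4.12 and not tested. The mean of these 3 markers was 6.76, 8.15 and 8.19 at time 0 and 6.43 to 6.77 at hours 5 to 8 in control cultures, and its part in the courses of Slc2a3, Slc2a1, Txnip and Slc2a8 was not tested. With the letter as a block, the proliferation markers Mki67, Top2a, Cdk1 and Aurkb passed as higher than at time 0 in control cultures (0.28, 0.49, 0.49 and 0.55), and their part in the courses was not tested either.

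Isoforms were then compared within arrays, by subtracting the treated minus control difference of one gene from that of another for each of the 23 pairs of arrays of hours 1 to 8. Of 8 pairs of genes, 7 differed in their response by a two-sided permutation test that flips the signs of the 23 values (adjusted over the 8 pairs; the smallest p that its 100000 resamples can give is 1e-05). Since the 23 pairs come from 3 letters, an exact permutation test on 1 mean per letter cannot go below p = 0.25 and passed none of the 8.

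**Figure D4:**
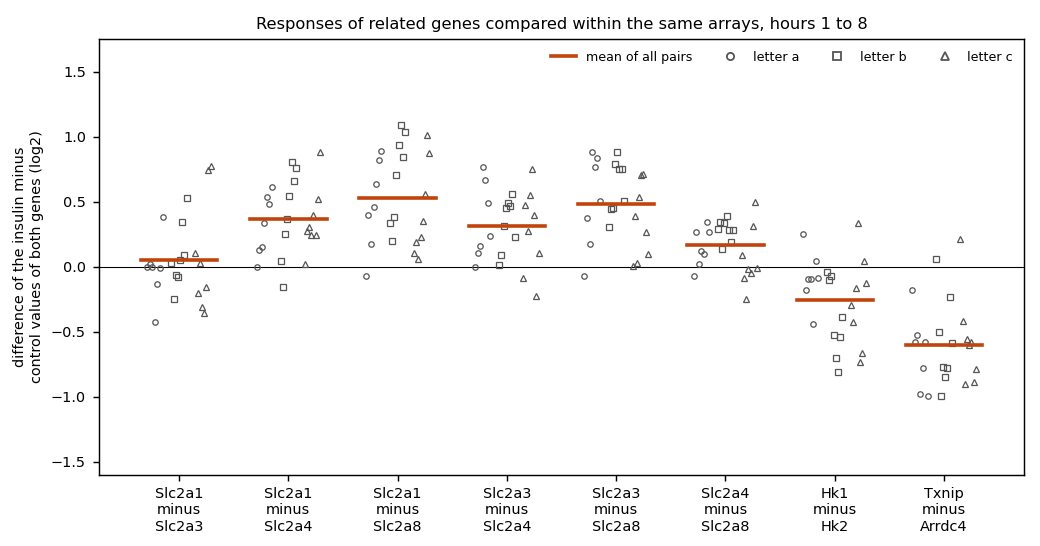
Difference between the insulin minus control values of 2 genes in log2 units (vertical axis) for 8 pairs of genes (horizontal axis), with an open symbol for each of the 23 letter and hour pairs, its shape giving the letter, and a bar at the mean. Slc2a1 minus Slc2a8 lies above 0 in 22 of 23 pairs and Txnip minus Arrdc4 below 0 in 21 of 23.

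The surface transporters Slc2a1 and Slc2a3 both lay above Slc2a4 and Slc2a8 in their response. Slc2a1 exceeded Slc2a8 by 0.53 (SD 0.36, 22 of 23 pairs, adjusted p = 2e-05 by permutation) and Slc2a4 by 0.37 (SD 0.27, 21 of 23, adjusted p = 2e-05 by permutation). Slc2a3 exceeded Slc2a8 by 0.48 (22 of 23, adjusted p = 2e-05 by permutation) and Slc2a4 by 0.32 (20 of 23, adjusted p = 4.8e-05 by permutation), and all 3 letters were above 0 in each of these 4. Slc2a1 and Slc2a3 differed by 0.049 (SD 0.32, 11 of 23 pairs above 0, adjusted permutation p = 0.475), with letters at -0.024, 0.082 and 0.080.

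Slc2a4 exceeded Slc2a8 by 0.17 at the brightest probe set (17 of 23, adjusted permutation p = 0.000693), but by -0.0034 at the second Slc2a4 probe set (adjusted permutation p = 0.948) and by 0.10 without letter b (0.0742). The response of Hk1 was 0.25 below that of Hk2 (mean of Hk1 minus Hk2 -0.25, below 0 in 19 of 23 pairs, adjusted permutation p = 0.00112), which was lost without letter b (-0.18, 0.0527) and at the second Hk1 probe set (-0.18, 0.0703). Txnip minus Arrdc4 was -0.60 (SD 0.32, adjusted permutation p = 2e-05), with -0.66, -0.58 and -0.56 in the 3 letters. Arrdc4, at a mean of 5.39, lay close to the lowest tested level of 5.04, so its own response may be read too small.

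Around these genes, 4 of 44 tested genes of the pathway lists passed over hours 1 to 8 (9.09%, against the 12.2% of all probe sets). With the letter as a block it was 13 of the 44 (29.5%, against 26.9% of all), and with 1 mean per letter none. Of 6 tested among 10 other glucose transporters, only the myo-inositol carrier Slc2a13 passed, as lower (-0.13, adjusted p = 0.0397 by limma), and it did not pass without letter a (0.190), b (0.0687) or c (0.301). Of 3 genes tested from the list of other hexokinases, which includes a regulator of glucokinase, none passed by limma (1 at an unadjusted p under 0.05). Adpgk, the ADP-dependent glucokinase, was higher over hours 5 to 8 (0.22, adjusted p = 0.00826), and over hours 1 to 8 in the fit blocked on the letter (0.090, 0.0230). Of 11 GLUT4 vesicle proteins and tethers, Stx4, the syntaxin at which GLUT4 vesicles dock, was higher (0.12, SE 0.024, adjusted p = 0.000672, or 0.0881 without letter b), and Stxbp3, the Munc18 protein that binds it, was lower (-0.15, adjusted p = 0.0336; -0.37 over hours 5 to 8, adjusted p = 0.000211). The Stxbp3 call over hours 1 to 8 was lost without letter a (0.243), b (0.108) or c (0.133) and without letter b at hours 0 to 5 (0.0511). Sort1, sortilin of the GLUT4 vesicles, was lower in the blocked fit (-0.12, 0.00799).

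None passed over hours 1 to 8 by limma among 3 voltage-dependent anion channels, to which hexokinases bind on mitochondria (1 at an unadjusted p under 0.05). The same held for 6 enzymes on the routes onward from glucose 6-phosphate (2 unadjusted) and for 4 regulators of the Slc2a4 gene (1 unadjusted). In the fit blocked on the letter, the channel Vdac2 (0.090, adjusted p = 6.38e-05) and the transcription factor Mef2a (0.14, 0.000132) passed as higher, and Pfkm, the phosphofructokinase of muscle (-0.10, 0.00502), Mef2c (-0.13, 0.00540) and Mef2d (-0.12, 0.0483) as lower. Between time 0 and hours 5 to 8 in control cultures, Mlx fell (-0.41, adjusted p = 0.0391), as did Txnrd1 (-0.48, 0.0192), and Adpgk (-0.35, 0.0107). Slc2a13 (0.34, 0.0237), Arrdc2 (0.38, 0.0184) and Txnrd3, another thioredoxin reductase (0.25, 0.0230), rose there. These were 6 of 44 (13.6%, against 6.48% of all probe sets). With the letter as a block it was 12 (27.3%), a fit in which the share of all probe sets was not counted for this comparison.

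For each of the 8 genes, the 3 genes with the most similar profile were sought by Pearson's r over the 18 group means among 11569 genes, as a description without a test, since the means share arrays, media and days. Txnip ran closest to Arrdc2 (0.962), Ackr3 (0.911) and Pdk4, an inhibitor of pyruvate dehydrogenase (0.901). Slc2a1 ran closest to Pum3 (0.977), Ccdc86 (0.976) and Nat10 (0.974), and Slc2a3 to Nab2 (0.983), Bhlhe40 (0.982) and Abl2 (0.979). Slc2a8 ran closest to Paox (0.981), Vkorc1 (0.961) and Galm (0.957), and Slc2a4 to Ufsp1 (0.918), Arrdc1 (0.903) and Fgfbp3 (0.898). Hk1 ran closest to Ncln (0.933), Thop1 (0.924) and Sec61a1 (0.923), Hk2 to Tead4 (0.953), E2f4 (0.951) and Pvr (0.940), and Arrdc4 to Inka1 (0.870), Eeig1 (0.852) and Enc1 (0.850). Among the 8 themselves, r was 0.885 for Slc2a3 and Hk2, 0.814 for Slc2a1 and Hk2, 0.798 for Slc2a1 and Slc2a3, 0.689 for Txnip and Arrdc4, and -0.814 for Slc2a3 and Slc2a8.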

How the data were processed

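RNA of L6 myotubes was measured on Affymetrix rat expression arrays. The deposited log2 levels were made by the authors with RMA, including background correction and quantile normalization (software versions not given in the sources used here). Arrays were mapped to culture, hour and letter from their labels. The 57 controls of the manufacturer were removed, and of 31042 probe sets the brightest by mean, as many as the study tested, entered the tests. The platform annotation gives 1 gene symbol to 20832 probe sets.

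A linear model with a mean for each group and a variance trend was fitted in limma 3.58.1 (R 4.3.3), and its two-sided p-values received the Benjamini-Hochberg adjustment across all tested probe sets. The threshold was an adjusted p of 0.05. The fit takes arrays of 1 letter at different hours as independent. The fit was tested on simulated arrays with known shifts. Their noise was drawn independently for each array, so that the assumption of independence was not tested. Isoform pairs were compared by a permutation test with 100000 resamples. The number of arrays limits the precision. Letters are taken to mark days, which the labels do not state. In all 26 pairs of a letter and an hour the deviations of the 2 arrays from their group means correlated (r from 0.21 to 0.79). Blocked values therefore stand beside a result of the 8 genes, and beside the lists over hours 1 to 8, where they change a call. The alternatives were these blocks, leaving out each letter or letter b at hours 0 to 5, 1 mean per letter, no filter, a stricter filter, no trend, centred arrays, array weights and the second probe set. Comparison against the 6 arrays of time 0 of both cultures, and leaving out 1 array of time 0, were chosen after seeing the data.

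The genes named are the 8 members, the called members of the lists (other glucose transporters, other hexokinases with a regulator of glucokinase, other alpha-arrestins, thioredoxin system, Mondo and Mlx factors, GLUT4 vesicle proteins, anion channels, fates of glucose 6-phosphate, regulators of Slc2a4 and cell type markers) and the 3 genes most similar to each member. The members and lists were chosen with earlier results of these data known. Promoter windows come from RefSeq (GRCr8).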

Additional observations from a re-analysis of the deposited data

How the results depend on the processing

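Of the 8 genes, 3 passed over hours 1 to 8, against 4 with the replicate block of the letter, 5 with that of letter and hour, 1 without letter b at hours 0 to 5, 1 with 1 mean per letter and 1 to 4 without a letter. Of all probe sets 12.2% passed there without a block, 26.9% with the letter block and 25.9% with that of letter and hour. For the comparisons below other than single hours, shares of all probe sets under the blocks were not counted. At single hours they were 1.66% with the letter block and 2.02% with that of letter and hour. No such share was counted for the other fits, 1 mean per letter included. Counts given without such a share are not read as results about the 8 genes. Over hours 1 and 2 none passed by limma (1, Slc2a8, at an unadjusted p under 0.05), where 0% of all probe sets passed. It was 1 with the letter block, 1 with array weights and 0 to 1 without a letter. Over hours 5 to 8 it was 3, against 5 with either block and 1 to 3 without a letter. For the change of the difference it was 0, against 3 with the letter block, 4 with the block of letter and hour, 1 each with the stricter filter, centred arrays and array weights, and 0 to 1 without a letter. By the F test over hours it was 1, against 4 with either block, 0 without letter b at hours 0 to 5, 3 with array weights and 0 to 2 without a letter. Relative to time 0 it was 0, where 0% of all probe sets passed, against 1 with either block. In the control cultures it was 4, against 2 without letter b at hours 0 to 5 and 1 to 4 without a letter. In the insulin cultures it was 1, against 2 with the letter block, 0 without letter b at hours 0 to 5, 2 with array weights and 0 to 2 without a letter. Of the tests at single hours 0 passed, against 9 with the letter block, 10 with the block of letter and hour, 11 with 1 mean per letter, 3 with array weights and 0 to 1 without a letter. Of the isoform pairs 7 passed, against 5 to 7 without a letter. With 1 mean per letter 0 passed, an outcome fixed in advance since that exact test cannot go below p = 0.25.

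The sign turned only for values close to 0. They were Slc2a4 over hours 5 to 8 (0.00047, and -0.045 to 0.031 without a letter), Hk1 over hours 1 to 8 (-0.016, against 0.068 without letter b at hours 0 to 5, 0.050 at the second probe set and -0.12 to 0.052 without a letter), Hk1 over hours 5 to 8 (0.11, and -0.046 to 0.26 without a letter) and the change of the difference for Slc2a8 (0.068, against -0.022 without letter b at hours 0 to 5 and -0.00031 to 0.11 without a letter) and Arrdc4 (0.026, and -0.069 to 0.19 without a letter). In the insulin cultures they were Hk1 (0.0090, against -0.077 without letter b at hours 0 to 5, -0.0047 centred, -0.082 with array weights, -0.039 against the 6 arrays of time 0 and -0.090 to 0.17 without a letter) and Txnip (-0.072, against 0.040 against the 6 arrays and -0.20 to 0.16 without a letter). Slc2a4 minus Slc2a8 was -0.0034 at the second probe set of Slc2a4. The cause was not tested for any of these. Txnip passed as lower over hours 1 to 8 and over hours 5 to 8 under each of the 12 alternative fits, leaving out any letter included. The calls of Slc2a1 and Slc2a8 rest on letter b or c, and with 3 days no value here has more than 3 independent repeats.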
